A study of Mus musculus with 8 samples.

Results

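The genes of de novo lipogenesis, the pathway by which the liver turns surplus carbohydrate into fatty acids, were examined together with their main regulators in primary mouse hepatocytes with and without p16. The 10 genes are Acly, Acaca, Acacb, Fasn, Me1, Elovl6 and Scd1, which encode the enzymes, and Thrsp, Srebf1 and Mlxipl, which encode regulators. Each was taken from the array row annotated with that symbol alone, and all 10 had exactly 1 such row, out of 22180 genes named on the array. Expression was measured on 1 array per sample, in 4 samples from p16-/- mice (knockout) and 4 from their p16+/+ littermates (wild type). Both groups received the same culture. Hepatocytes freed by collagenase perfusion attached in Williams E medium that held 25 nM dexamethasone, 100 nM insulin and 10% serum. At 16 h they were moved to DMEM of low glucose (1 mM, with 0.1% bovine albumin), kept there for 8 h and lysed for RNA at 24 h. The labels call the replicates biological without naming the mouse behind each, and the strain, age and deleted part of the locus are not given here; the p-values therefore speak for the spread among these 8 samples. The comparison asks how the loss of p16, an inhibitor of the cyclin-dependent kinases CDK4 and CDK6, alters hepatocyte gene expression after a spell in low-glucose medium.

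In lipogenesis, citrate exported from mitochondria is cleaved by ATP citrate lyase (Acly) to acetyl-CoA, which the acetyl-CoA carboxylases (Acaca and Acacb) turn into malonyl-CoA and fatty acid synthase (Fasn) builds into palmitate with NADPH that malic enzyme (Me1) helps to supply. Palmitate is lengthened by the elongase ELOVL6 and desaturated by the stearoyl-CoA desaturase SCD1. In liver, insulin acts on the pathway largely through SREBP-1c, a product of Srebf1 that is held in the endoplasmic reticulum by INSIG proteins, and glucose acts through ChREBP, the product of Mlxipl, with its partner MLX; Thrsp, also called Spot 14, is a small lipogenic protein induced by both signals and by thyroid hormone.

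Of the 10 genes, Scd1, Thrsp and Acacb rose in the knockout, by 2.28-fold, 2.00-fold and 1.81-fold, and none fell (limma, adjusted p under 0.05 over all genes tested). The other 7 did not pass the test, and of these only Acaca was lower by limma before adjustment over all genes. The 7 include the enzyme genes Acly, Fasn and Me1 and both transcription factor genes, whose changes lay between -0.05 and 0.04 on the log2 scale. Those of Acaca and Elovl6 were -0.28 and -0.24. Over all 15380 genes tested 13.8% were called in either direction, 7.02% were called higher and 6.76% lower, against 3 of 10 higher and 0 of 10 lower here. The median change of the 10 genes was 0.02, beside -0.02 over all genes tested.

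Promoter windows are shown for Thrsp and Acacb, which rose, and for Fasn, which did not pass the test, so that the sequences can be set beside the values. They are RefSeq sequences of build GRCm38.p6, the 250 bases before an annotated transcript start, written 5′ to 3′ on the gene's strand, with NF-Y boxes (CCAAT, or ATTGG for a match on the opposite strand) in capitals. The windows lie at chr7:97417551-97417800 (minus strand) for Thrsp, chr5:114165268-114165517 (plus strand) for Acacb and chr11:120824548-120824797 (minus strand) for Fasn.
Thrsp: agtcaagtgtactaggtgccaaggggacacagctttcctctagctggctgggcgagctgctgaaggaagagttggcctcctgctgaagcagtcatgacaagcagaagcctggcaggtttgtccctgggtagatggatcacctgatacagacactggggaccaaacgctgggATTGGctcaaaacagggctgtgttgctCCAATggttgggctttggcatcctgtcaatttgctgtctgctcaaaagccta
Acacb: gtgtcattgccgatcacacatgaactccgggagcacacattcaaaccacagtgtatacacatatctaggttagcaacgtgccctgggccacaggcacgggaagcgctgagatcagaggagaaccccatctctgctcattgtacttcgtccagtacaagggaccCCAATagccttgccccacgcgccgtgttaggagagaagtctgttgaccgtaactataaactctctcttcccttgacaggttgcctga
Fasn: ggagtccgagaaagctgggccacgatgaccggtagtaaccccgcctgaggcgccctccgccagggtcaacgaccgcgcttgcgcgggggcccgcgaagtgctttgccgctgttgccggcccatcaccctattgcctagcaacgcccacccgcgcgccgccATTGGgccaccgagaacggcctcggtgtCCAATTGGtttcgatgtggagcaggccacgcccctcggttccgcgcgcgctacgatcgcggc

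Counting the base before the start as -1, the Thrsp window held NF-Y boxes at -79 to -75 and -52 to -48, the Acacb window held 1 at -87 to -83, and the Fasn window held 3, at -90 to -86, -62 to -58 and -59 to -55, the last pair overlapping. NF-Y is a trimeric factor that often binds beside SREBP. Windows were found for 9 of the 10 genes (all but Scd1), 13 in all because some genes have several annotated starts. An NF-Y box occurred in 7 of the 13 windows, which belong to 6 of the 9 genes, and in 33.8% of the 32851 windows of this length in the table. The sterol regulatory element TCACNCCAC, searched on both strands, occurred in 1 window, of Mlxipl, and in 1.05% of all windows; the E-box CACGTG occurred in the other Mlxipl window and in 6.02% of all. The GC box GGGCGG was found in 5 of the 13 windows, of 4 genes, and in 32.7% of all windows, and the TATA box TATAAA in Acacb, at -34 to -29, and in 12.4% of windows. The carbohydrate response element (ChoRE) and the LXR element, a direct repeat, matched none of the 13 windows and 0.0274% and 0.0152% of all. Each was searched as 1 strict pattern. Patterns this rare are seldom met in 13 windows, so their absence says little about these genes. These matches describe letters in a window and were not tested as binding sites. NF-Y boxes stood in windows of genes that rose and of genes that did not pass the test.

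**Figure D1:**
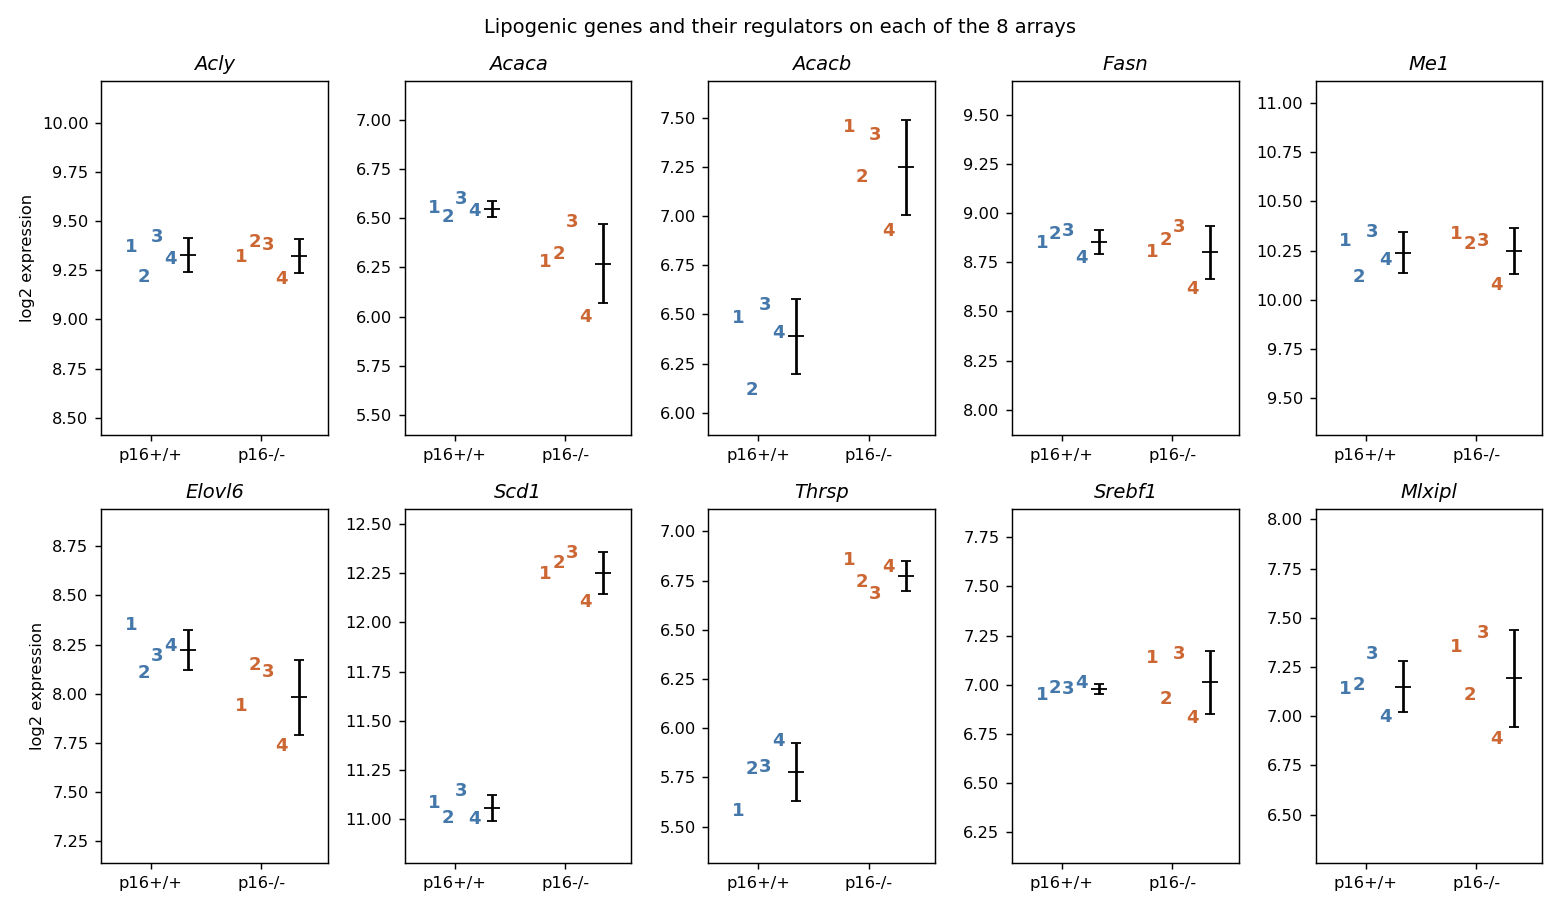
Deposited log2 expression (vertical axis) of the 10 genes in p16+/+ (blue) and p16-/- (orange) hepatocytes. Each digit is the array of that replicate number, bars are the mean and SD of 4 arrays, and every panel spans the same range of log2 units; Scd1, Thrsp and Acacb separate upward, Acaca lies lower without passing the test, and the other genes overlap.

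Scd1, which encodes the desaturase that makes oleate and palmitoleate, had the largest change of the 10. Its log2 values were 11.08, 11.01, 11.14 and 11.00 on wild type arrays 1 to 4 and 12.25, 12.30, 12.35 and 12.10 on knockout arrays 1 to 4. Every knockout array lay above every wild type array, with the lowest knockout value 0.96 above the highest wild type value, and the spread within a group was small (SD 0.07 and 0.11, n = 4). The change was 1.19 on the log2 scale (SE 0.09, 95% interval 1.00 to 1.39, limma adjusted p = 9.79e-06), and 1.06% of the genes tested had a larger change in either direction. Mice carry further Scd genes of high similarity; Scd3 was near the floor of the array, with means of 3.36 (wild type) and 3.34 (knockout, limma adjusted p = 0.951), and Scd2 was not analysed here.

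Of the acetyl-CoA carboxylase genes Acacb rose, while Acaca did not pass the test. Acacb encodes ACC2, the form at the outer mitochondrial membrane whose malonyl-CoA restrains fatty acid entry through CPT1, and Acaca encodes ACC1, the cytosolic form that feeds fatty acid synthesis. Acacb was at 6.48, 6.12, 6.55 and 6.41 in wild type and 7.45, 7.20, 7.41 and 6.93 in knockout cells, with no overlap, a change of 0.86 (SE 0.14, 95% interval 0.56 to 1.16, limma adjusted p = 0.00163). Acaca was at 6.55, 6.50, 6.60 and 6.54 in wild type and 6.28, 6.32, 6.48 and 5.997 in knockout cells. All 4 knockout values of Acaca lay below the wild type values, a pattern that 11.1% of all genes tested showed in the lower direction. Its change of -0.28 (SE 0.11, unadjusted 95% interval -0.51 to -0.04) did not pass the test across all genes (limma adjusted p = 0.117), and without knockout replicate 4 it was -0.19 (adjusted p = 0.184). The adjusted p of Acaca was 0.0417 with quantile normalization, the 1 alternative of 23 in which it passed. The genes are paralogues, and whether a probe of one also binds the other's transcript was not tested.

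Within single arrays, the log2 value of Acacb minus that of Acaca was between -0.39 and -0.05 in wild type and between 0.88 and 1.18 in knockout cells. The sizes of these differences depend on the probes, so only their shift between the groups is compared, which can itself differ between probes of a gene. For the 1 row of each gene it came to 1.14, or 2.20-fold in the ratio of Acacb to Acaca. The comparison was chosen with the values known and is given without a test. Knockout replicate 4, which had the lowest value of the group for both genes, was at 0.93 and so inside the range of the other knockout arrays.

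Thrsp rose from 5.58, 5.79, 5.80 and 5.93 in wild type to 6.85, 6.74, 6.68 and 6.82 in knockout cells. The groups were far apart and the knockout values closely spaced (SD 0.15 and 0.08, n = 4). The change was 1.00 (SE 0.10, 95% interval 0.78 to 1.21, limma adjusted p = 5.68e-05). Its paralogue Mid1ip1, whose protein binds and activates acetyl-CoA carboxylase, went the other way. Mid1ip1 was at 7.63, 7.64, 7.64 and 7.60 in wild type and 7.12, 7.26, 7.24 and 7.07 in knockout cells, a fall of 0.45 (SE 0.08, limma adjusted p = 0.00395). The array has 3 rows for Mid1ip1, with changes of -0.45, -0.39 and, in the dimmest, 0.08; with their mean in place of the brightest row the change was -0.26 and the call ended (adjusted p = 0.0841). On single arrays Thrsp minus Mid1ip1 ran from -2.06 to -1.67 in wild type and from -0.56 to -0.25 in knockout cells, a shift of 1.45, or 1.25 with the mean of the Mid1ip1 rows, also given without a test.

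**Figure D2:**
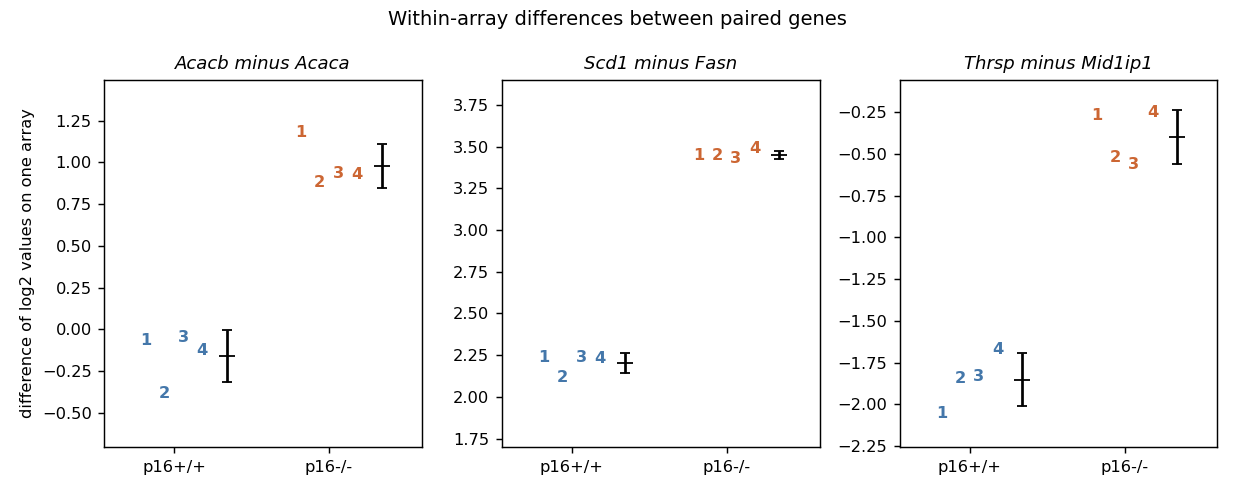
Difference of 2 genes' log2 values on the same array (vertical axis, log2 units) for Acacb minus Acaca, Scd1 minus Fasn and Thrsp minus Mid1ip1, with digits for replicates, blue for p16+/+, orange for p16-/- and bars for mean and SD of 4 arrays. The groups do not overlap in any panel, and the mean shifts by 1.14, 1.25 and 1.45. The pairs were chosen with the values known, so the separation is not a test.

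Among the enzyme genes, Acly, Fasn and Me1 had changes near 0 that did not pass the threshold. Acly, which supplies cytosolic acetyl-CoA, was at 9.37, 9.22, 9.42 and 9.31 in wild type and 9.32, 9.39, 9.38 and 9.20 in knockout cells, and the groups overlapped fully. Its change was -0.0034 (SE 0.09, 95% interval -0.20 to 0.19, limma adjusted p = 0.987), which corresponds to a fold between 0.873 and 1.14. Fasn, the synthase itself, was at 8.85, 8.89, 8.91 and 8.77 in wild type and 8.80, 8.86, 8.93 and 8.61 in knockout cells. Its change was -0.05 (SE 0.09, 95% interval -0.26 to 0.15, limma adjusted p = 0.774). For both genes the whole interval lies below the change of Acacb, the smallest of the 3 rises, although a missed threshold does not show equal levels. Me1, the cytosolic malic enzyme, ranged from 10.11 to 10.35 in wild type and from 10.08 to 10.34 in knockout cells, with a change of 0.0094 (95% interval -0.20 to 0.22, limma adjusted p = 0.967).

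Scd1 and Fasn could be compared within arrays in the same way as the carboxylases. Scd1 minus Fasn was 2.24, 2.11, 2.24 and 2.23 in wild type and 3.44, 3.44, 3.43 and 3.49 in knockout cells. This was the tightest of the compared differences (SD 0.06 and 0.03, n = 4), and it shifted by 1.25, or 2.37-fold in the ratio of Scd1 to Fasn. The shift restates the changes of 1.19 for Scd1 and -0.05 for Fasn. This pair too was chosen with the values known and is given without a test.

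Elovl6, which lengthens palmitate to stearate, was at 8.35, 8.11, 8.19 and 8.24 in wild type and 7.94, 8.15, 8.11 and 7.73 in knockout cells. The 2 lowest values were those of knockout replicates 4 and 1, and the groups overlapped. Its change of -0.24 did not pass the test (SE 0.11, 95% interval -0.48 to 0.00062, limma adjusted p = 0.187) and was -0.16 without knockout replicate 4 (adjusted p = 0.325).

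The transcription factor genes did not pass the test. Srebf1 was at 6.95, 6.98, 6.98 and 7.01 in wild type and 7.14, 6.93, 7.16 and 6.83 in knockout cells, with knockout values on both sides of a narrow wild type range (SD 0.03 against 0.16). Its change was 0.03 (SE 0.10, 95% interval -0.18 to 0.24, limma adjusted p = 0.875). The row does not separate SREBP-1a from SREBP-1c, and SREBP-1 is activated by cleavage, which an RNA array does not measure. Mlxipl was at 7.14, 7.16, 7.31 and 6.99 in wild type and 7.35, 7.11, 7.42 and 6.88 in knockout cells, a change of 0.04 (SE 0.13, 95% interval -0.24 to 0.32, limma adjusted p = 0.882). Both the highest and the lowest of the 8 Mlxipl values were knockout arrays.

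**Figure D3:**
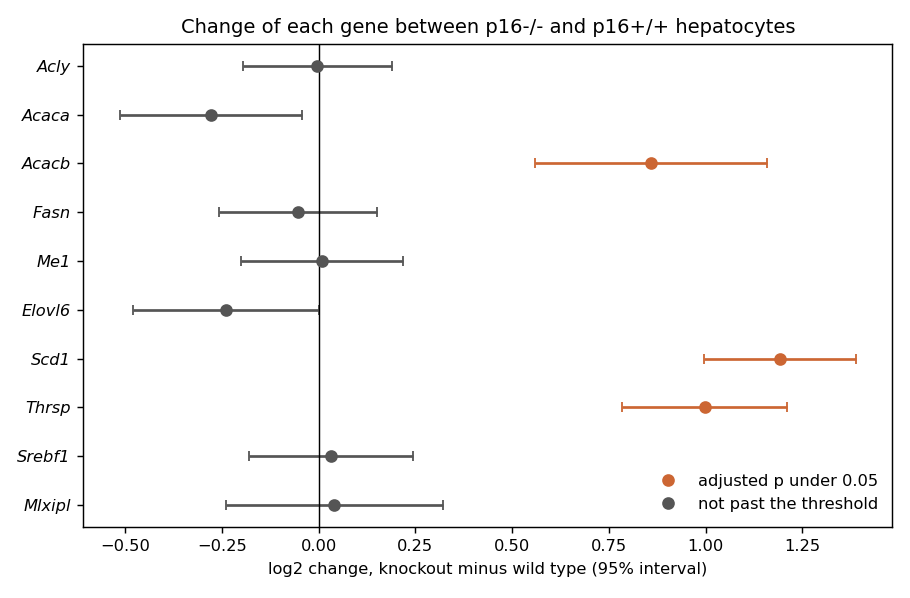
Log2 change, knockout minus wild type (horizontal axis), of the 10 genes with limma's unadjusted 95% interval from 4 arrays per group. Orange marks the genes past an adjusted p of 0.05, Acacb at 0.86, Thrsp at 1.00 and Scd1 at 1.19; the others lie between -0.28 and 0.04.

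Arrays of a group differed in a way that most of the 10 genes shared. Knockout replicate 4 had the lowest value of its group for 9 of the 10 genes, all but Thrsp, while over all genes tested it was the lowest knockout array for 42.8%. The mean deviation of the 10 genes from their group means was -0.19 on that array, against 0.02 to 0.11 on the other knockout arrays and -0.07 to 0.07 on the wild type arrays. Wild type replicate 3 had the highest value of its group for 7 of the 10, against 30.2% of all genes tested. Correlations of the deviations between pairs of these genes had a median of 0.73 over the 8 arrays, and 37 of 45 were above 0, beside a median of 0.03 and 52.4% above 0 over all pairs of the genes tested. Me1 with Acacb (0.94) and Scd1 with Acaca (0.92) were the closest pairs. Thrsp stood apart, with -0.52 against Elovl6 and -0.48 against Scd1. These correlations rest on 8 arrays, share each array's RNA and normalization and are given as a description.

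Without knockout replicate 4 the calls were the same 3, with changes of 1.24 for Scd1, 0.98 for Thrsp and 0.97 for Acacb, while Srebf1 was at 0.09, Mlxipl at 0.14 and Fasn at 0.0084 with no call. The 5 other genes whose deviations were most like the mean of the 10 were Polr3a, Rbms2, Blm, Washc5 and Adgrl2 (Pearson r 0.992 to 0.995 over 8 arrays), none of which passed the test between the groups.

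**Figure D4:**
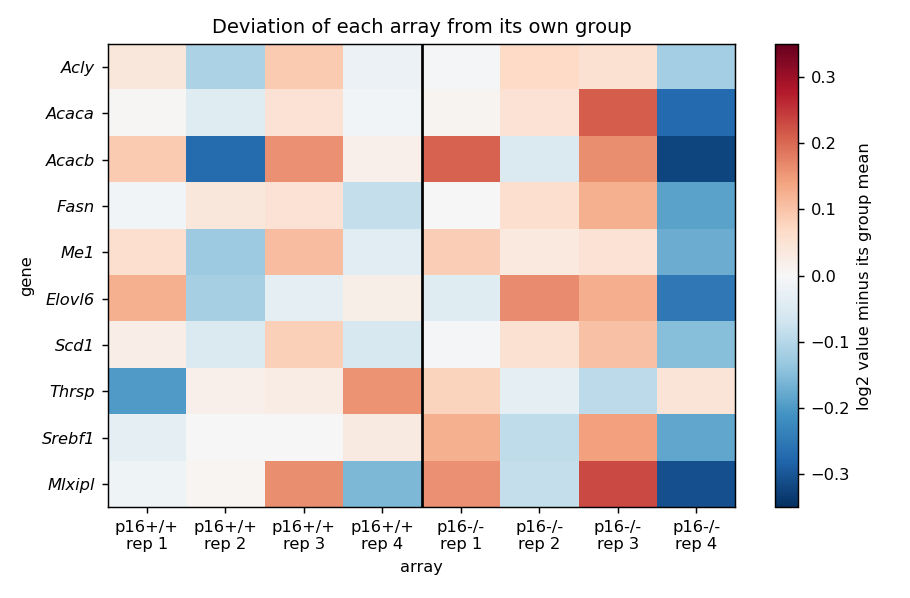
Each array's log2 value minus the mean of its own group (colour scale, log2 units, red above and blue below) for the 10 genes (rows) on 8 arrays (columns, p16+/+ left of the line). The column of p16-/- replicate 4 is blue for all genes but Thrsp.

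Around SREBP, both Insig genes rose. Insig2 and Insig1, whose proteins retain SREBP in the endoplasmic reticulum, rose by 0.85 (SE 0.11, limma adjusted p = 4.13e-04) and 0.59 (SE 0.10, adjusted p = 0.00203). Insig2 was at 7.79, 7.58, 7.99 and 7.77 in wild type and 8.82, 8.52, 8.65 and 8.56 in knockout cells, without overlap. Of 16 tested genes of SREBP processing and partners 3 rose and 1 fell, with a median change of 0.03. Over all genes tested 7.02% were called higher and 6.76% lower, the shares to set beside this and every list count below. The other riser, Scap, the escort protein of SREBP (0.29, adjusted p = 0.0323), lost its call when any array but knockout replicate 4 was left out (adjusted p up to 0.0987), and its dim second row had a change of -0.0078. Nfya, a subunit of NF-Y, fell by 0.41 (adjusted p = 0.0381), a call that remained only without knockout replicate 2 or 4 when arrays were left out in turn (up to 0.0924 otherwise). Srebf2, the gene of the cholesterol regulator SREBP-2, had a change of -0.22 (adjusted p = 0.174), and Nr1h3, which encodes LXRa, an inducer of Srebf1, one of 0.16 (adjusted p = 0.340).

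Of 17 tested genes of cholesterol synthesis and other SREBP-2 targets 11 rose and none fell, with a median change of 0.40, beside 3 of the 10 lipogenic genes with a median of 0.02. Tm7sf2 (0.80, SE 0.09), Ebp (0.76, SE 0.11), Pmvk (0.56, SE 0.11) and Nsdhl (0.54, SE 0.10), all enzymes between mevalonate and cholesterol, had limma adjusted p-values of 1.61e-04 to 0.00503. Of 9 LXR targets 2 rose and 2 fell. The cholesterol exporter gene Abca1 fell by 0.63 (SE 0.11, adjusted p = 0.00358) and Mylip, a ubiquitin ligase gene, fell by 0.42 (adjusted p = 0.0247). Abcg5 and Abcg8, the partner subunits of the sterol exporter of the canalicular membrane, rose by 0.53 (adjusted p = 0.0193) and 0.38 (adjusted p = 0.0394). The calls of Mylip, Abcg5 and Abcg8 ended when 5, 3 and 6 of the 8 arrays, respectively, were left out 1 at a time, with adjusted p-values up to 0.0760, 0.0625 and 0.114.

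Genes around ChREBP moved in both directions. Of 12 tested partners and targets 4 rose and 2 fell, with a median of 0.09. The glucose transporter gene Slc2a2 rose by 1.26 (SE 0.09, limma adjusted p = 9.19e-06), the fructokinase gene Khk by 1.02 (SE 0.11) and the glucose 6-phosphatase gene G6pc by 0.92 (SE 0.11). Txnip, a sensitive glucose-induced target, fell by 0.61 (SE 0.12, adjusted p = 0.00769), with wild type values of 5.57, 5.41, 5.75 and 5.45 and knockout values of 5.23, 4.94, 4.90 and 4.68. Its relative Arrdc4 rose by 0.34 (adjusted p = 0.0300) and Gckr fell by 0.45 (adjusted p = 0.0415), but these calls ended when 5 and 7 of the 8 arrays, respectively, were left out in turn (adjusted p up to 0.0797 and 0.109). Pklr, the liver pyruvate kinase gene and a classical ChREBP target, had a change of 0.32 (adjusted p = 0.0822). It was at 8.02, 7.98, 8.07 and 8.20 in wild type and 8.33, 8.59, 8.51 and 8.13 in knockout cells, and without knockout replicate 4 its adjusted p was 0.0203. It also passed with cyclic loess, an intensity trend in the variance or array weights. Mlx had a change of -0.09 (adjusted p = 0.606).

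Of 10 tested genes that supply acetyl-CoA and NADPH 3 rose and 1 fell, with a median of 0.0037. G6pdx and Tkt, also genes of this supply, were not analysed here, so the count does not cover them. Acss2, which makes cytosolic acetyl-CoA from acetate, rose by 0.90 (SE 0.15, limma adjusted p = 0.00235), and the transaldolase gene Taldo1 of the pentose phosphate pathway fell by 0.52 (SE 0.10, adjusted p = 0.00581). The citrate synthase gene Cs rose by 0.43 (adjusted p = 0.0170), with adjusted p-values of 0.0518 and 0.0565 without wild type replicate 1 or knockout replicate 2, and Aacs rose by 0.28 (adjusted p = 0.0471), a call that ended when any array but knockout replicate 4 was left out (up to 0.134). Of 14 tested modulators of acetyl-CoA carboxylase and fatty acid synthesis 2 rose and 1 fell. Beside Mid1ip1, these were Prkab2, a subunit of the kinase AMPK that inactivates both carboxylases (0.92, SE 0.14, adjusted p = 0.00155), and the acyl-CoA binding protein gene Dbi (0.35, adjusted p = 0.0359), whose call ended when 6 of the 8 arrays were left out in turn (up to 0.0918). The other listed AMPK subunit genes, Prkaa1 (-0.29), Prkaa2 (-0.26), Prkab1 (-0.18), Prkag1 (0.07) and Prkag2 (0.12), were not called (limma adjusted p 0.119 to 0.646).

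Downstream of palmitate, Scd1 was accompanied by genes of polyunsaturated and very long chain synthesis. Of 15 tested genes of elongation and desaturation 6 rose and 1 fell, with a median of 0.15. Elovl3, an elongase of saturated and monounsaturated chains, rose 3.87-fold, from 5.50, 5.48, 5.76 and 6.11 to 7.93, 7.54, 7.58 and 7.62 (log2 change 1.95, SE 0.15, limma adjusted p = 1.04e-05). Its change was larger than that of any of the 10 lipogenic genes. Elovl2 (1.06, SE 0.09), Fads2 (0.87, SE 0.11) and Fads1 (0.56, SE 0.09), which elongate and desaturate polyunsaturated chains, rose as well, while Fads3, a related gene, fell by 0.86 (SE 0.09, adjusted p = 1.34e-04). The list does not hold Elovl6 or Scd1 themselves, whose changes were -0.24 and 1.19.

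In triglyceride assembly 4 of 16 tested genes rose and none fell, beside 7.02% and 6.76% of all genes tested, with a median of -0.0096. Lpin1 and Lpin2, phosphatidate phosphatases that make diacylglycerol, rose by 1.05 (SE 0.13, limma adjusted p = 3.81e-04) and 1.03 (SE 0.12, adjusted p = 1.86e-04). Lpin1 was at 6.78, 6.48, 6.93 and 6.99 in wild type and 8.07, 7.86, 7.84 and 7.61 in knockout cells, and a dimmer row of Lpin2 had a change of 2.02. Gpam, the mitochondrial acyltransferase of the committed step, rose by 0.43 (adjusted p = 0.0303) and Dgat1 by 0.34 (adjusted p = 0.0369). The Gpam call ended when any array but wild type replicate 3 or knockout replicate 4 was left out (up to 0.0896) and the Dgat1 call when any of the 8 was (0.0502 to 0.0994).

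**Figure D5:**
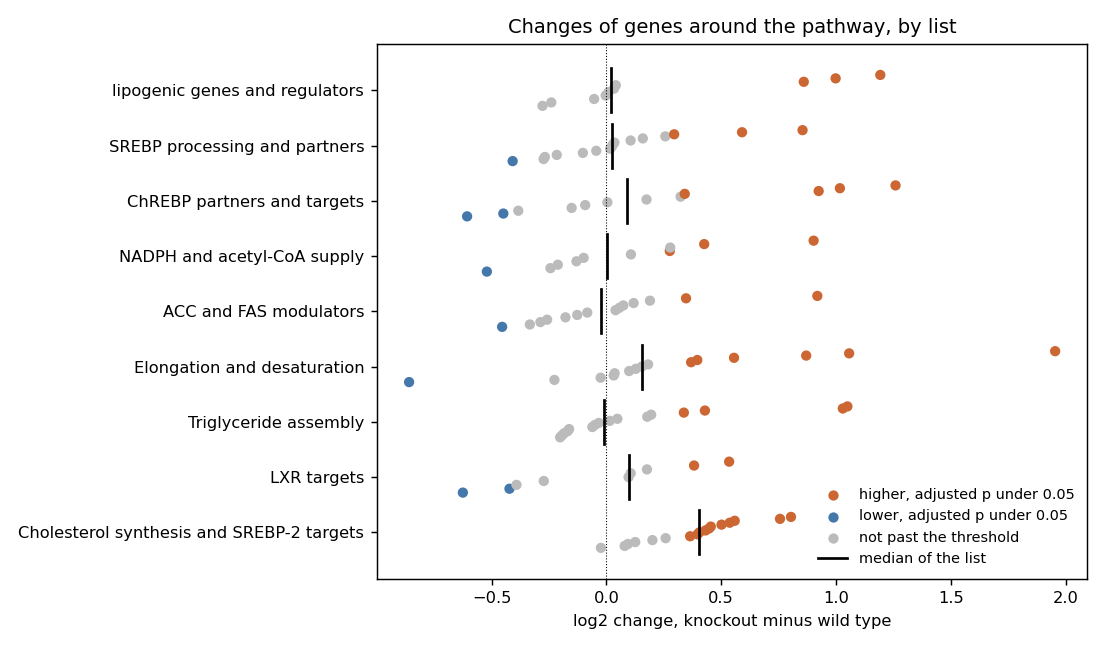
Log2 change, knockout minus wild type (horizontal axis), of every tested gene of the 10 lipogenic genes and of 8 lists around them (1 dot per gene, spread vertically by rank within its list). Orange and blue mark genes higher and lower at an adjusted p under 0.05, grey the others, and black lines the list medians, which run from -0.02 for modulators of acetyl-CoA carboxylase and fatty acid synthase to 0.40 for cholesterol synthesis.

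Markers of cell types moved between the same groups; means below are over every listed gene with a row. Of 28 tested genes of mature hepatocytes 20 rose and none fell (median change 0.51, mean of the list 9.62 to 9.80 in wild type and 10.30 to 10.43 in knockout arrays), among them Arg1 (2.69) and Asgr1 (1.39), whereas Alb was at 13.54 and 13.57. Of 23 sinusoidal endothelial markers 19 fell and 1 rose (list mean 5.47 to 5.61 against 4.56 to 4.69; Cdh5 -2.03, Eng -1.56), of 19 tested Kupffer cell and macrophage markers 13 fell and 1 rose (5.10 to 5.23 against 4.44 to 4.49; Ctss -1.37, Fcer1g -0.91), and of 17 stellate cell and fibroblast markers 6 fell and 2 rose (4.97 to 5.06 against 4.52 to 4.62; Rgs5 -1.65, Dcn -2.13). The markers that rose were Flt1 (0.62, endothelial), Cd68 (0.58, macrophage), and Reln (0.99) and Vim (0.38) of the stellate list. Cd68 (wild type mean 10.87, knockout 11.45) and Vim (9.82 and 10.20) were the brightest of their lists. Of 7 tested adipocyte markers, of interest because fat tissue is also lipogenic, Fabp4 fell by 0.89 and no other was called (Retn -0.31, adjusted p = 0.112). A further 3 were too dim to be tested, and Retn was itself dim (wild type mean 3.85, knockout 3.53). Which cells the Fabp4 signal came from was not tested. No cholangiocyte marker of 5 (Epcam -0.25, Krt19 -0.24) or lymphocyte marker of 5 (Cd79b -0.16, Cd8a 0.12) was called by limma. A further 3 cholangiocyte and 6 lymphocyte markers were too dim to be tested. Epcam, Cd79b and Cd8a, at wild type means of 3.52, 3.70 and 3.41, were near the cut-off of 3.32, although Sox9 was at 8.84. With 13.8% of all genes tested called, no call among 5 genes says little about these cell types. In such bulk samples fewer cells of a type and less RNA per cell cannot be told apart. The part of these shifts in the changes of the lipogenic genes was not tested.

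Among all genes tested, 1080 were higher and 1039 lower in the knockout, or 51.0% higher among those called; with each array centred on its median the split was 1057 to 651. Knockout and wild type values were fully separate for 20.2% of genes (9.13% higher, 11.1% lower). Cdkn2a, the gene that encodes p16, was at 4.53 in both groups (change 0.0040, adjusted p = 0.992), and whether its probes lie in the deleted part is not given, so the row does not check the genotype labels.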

How the data were processed

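Total RNA of 8 hepatocyte samples was biotin-labelled and hybridised to Affymetrix gene arrays. The values used are the deposited log2 expression values, made by the authors with RMA through the oligo package per the submitters' processing notes; no version is stated there. RMA includes a quantile step across arrays, but the medians of the deposited values ran from 3.76 to 3.88 over the arrays, so small shifts between arrays remain, and median centring was tried as an alternative. Arrays have no read depth; precision is limited by the 4 arrays per group.

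Of 41345 rows 23521 had 1 gene symbol in the platform annotation, 1814 several and 16010 none; 1082 of the 22180 genes named had several rows, and the row of highest mean was kept. Testing covered the 15380 genes whose mean exceeded 3.32, the 40th percentile over rows. Moderated two-sided tests were made with limma (version 3.58.1, R 4.3.3, 6 residual degrees of freedom), and a gene was called at a Benjamini-Hochberg adjusted p under 0.05, adjusted across the 15380. All 10 lipogenic genes passed the filter. Promoter matches and tables were made in Python 3.11.15.

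The 10 genes and all lists were chosen with earlier results of these data known. Named genes are the 10, up to 4 called genes per direction of each pathway list, 13 partner and paralogue genes, the 5 most like profiles and 2 genes per cell type list. The fit was also run on simulated data, with noise drawn independently for each gene and array. Such data lack the deviations that genes share on an array, and no result here rests on them. Alternatives were other filters, row rules, normalizations, variance models, array weights, thresholds, the replicate number as a block and leaving out each array; the closing section gives their effects, by name or as counts. An exact permutation test of 4 against 4 arrays has 70 arrangements and a smallest two-sided p of 0.0286, which Scd1, Thrsp, Acacb and Acaca reached. Every gene whose groups do not overlap reaches it, which held for 20.2% of all genes tested. It therefore adds nothing to the lack of overlap, and Acaca stays without a call.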

Additional observations from a re-analysis of the deposited data

Results flagged for a closer look

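The difference Scd1 minus Fasn of wild type replicate 2 was 2.11, below the 2.23 to 2.24 of the other wild type arrays, and the gap made up 0.955 of the range of that group. It was the only such value among 26 groups of 4 arrays examined (10 genes and 3 differences in 2 genotypes), where chance gives about 1 in 20.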

How the results depend on the processing

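The calls of Scd1 (1.16 to 1.24), Thrsp (0.93 to 1.05) and Acacb (0.77 to 0.97) were kept under all 23 alternatives, and those of no call for Acly, Fasn, Elovl6, Me1, Srebf1 and Mlxipl likewise. With quantile normalization Acaca passed the threshold (-0.27, adjusted p = 0.0417), which made 1 of the 10 genes lower. Changes near 0 turned sign without any call: Acly was 0.017 with cyclic loess, 0.031 with median centring and 0.016 with array weights, and Me1 was -0.024 with quantile normalization. When each array was left out in turn the change ran from -0.041 to 0.036 for Acly, -0.10 to 0.0084 for Fasn, -0.033 to 0.067 for Me1, -0.015 to 0.093 for Srebf1 and -0.037 to 0.14 for Mlxipl. Over all genes, 592 were higher and 479 lower at an adjusted p under 0.01, 355 and 246 with a test against 1.2-fold, and 651 lower with median centring; without wild type replicate 1 there were 654 lower, in a range of 654 to 992 over the arrays left out. The calls of Scap, Nfya, Arrdc4, Gckr, Cs, Aacs, Dbi, Gpam, Dgat1, Abcg5, Abcg8 and Mylip ended in 4 to 14 of the 23 alternatives, and the test against 1.2-fold also ended those of Insig1, Txnip, Taldo1, Mid1ip1, Fads1, Abca1, Nsdhl and Pmvk. The causes were not tested. Same-numbered wild type and knockout arrays had correlations of deviations of 0.06, 0.02, 0.26 and 0.21, so the numbers were not taken to pair the samples; with the replicate number as a block 1082 genes were higher and 1133 lower, and the calls of the 10 genes were the same 3, Scd1 at an adjusted p of 1.67e-04 (limma), while Retn then passed as lower and the calls of Scap, Nfya, Arrdc4 and Aacs ended.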
